A study of Drosophila melanogaster with 2 samples.

Results

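The Mediator and TFIID subunit genes of Drosophila melanogaster were examined for binding of fd96Cb, a forkhead family transcription factor, by chromatin immunoprecipitation with sequencing (ChIP-seq). They were taken as every protein-coding gene whose Ensembl BDGP6 symbol is MED or Taf followed by a number and optional letters. This gave 40 of the 13945 protein-coding genes on 6 chromosome arms, and of the 40, 25 are MED genes and 15 are Taf genes. The rule uses symbols and no binding values, although it was set with earlier results of these data known. Of these, Taf12L is a testis-type relative of Taf12, and the kinase module of Mediator, whose genes have other symbols, is not among the 40.

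The chromatin came from whole embryos aged 0 to 24 h of a transgenic line that stably carries fd96Cb fused at its C-terminus to green fluorescent protein (GFP). The labels describe an immunoprecipitation against GFP, while their antibody field names fd96Cb. They name neither the promoter of the transgene nor the number of embryos, and the sample mixes all tissues and stages of embryogenesis. There was a single group of 2 biological replicates, numbered 2 and 3, so replicate was set beside replicate and the 40 genes beside the other 13905, and no test between conditions was possible.

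Mediator is a large complex that carries signals from DNA-bound transcription factors to RNA polymerase II. It is built of a head, a middle and a tail around the scaffold subunit MED14, and a separable kinase module binds it. TFIID consists of the TATA-binding protein and its associated factors, the TAFs. It recognises core promoters and helps to place the polymerase at the transcription start site (TSS). The roles named below are known mainly from yeast and human cells. Both complexes serve most genes transcribed by RNA polymerase II, and their subunit genes are expressed in most cells.

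The authors deposited 30000 peaks for each replicate and for the pooled replicates, and 5743 peaks in an optimal set. The optimal set was selected by IDR (irreproducible discovery rate), a measure of how well peak ranks repeat between replicates. All 5743 were the strongest of the pooled list, down to a signal of 128.73. Signal values are the authors' own, their scale is not given, and they serve here only to rank peaks within a list. Sequencing depth is unknown. Positions below are 1-based in dm6, and an offset is the distance of a summit from the nearest TSS of the gene, negative where the summit lies upstream.

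Sequences at 6 member summits outside exons are shown, 5 between genes and that of Taf4 in an intron, because the base composition and the motif matches described below can be read from them. Each run holds 101 bases centred on the summit, 5′ to 3′ on the strand of the gene, from Release 6 of the genome. Capitals mark a match to any of the 9 motifs searched, which are listed below. The windows are chr2L:472431-472531 for MED15 (plus strand), chr3R:5654973-5655073 for MED27 (plus), chr3L:654210-654310 for MED30 (minus), chr3R:18188843-18188943 for MED17 (plus), chr3L:16113636-16113736 for Taf4 (plus) and chr3R:10761069-10761169 for MED7 (minus).
MED15: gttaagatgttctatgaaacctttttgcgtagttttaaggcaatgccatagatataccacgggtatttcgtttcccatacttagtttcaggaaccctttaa
MED27: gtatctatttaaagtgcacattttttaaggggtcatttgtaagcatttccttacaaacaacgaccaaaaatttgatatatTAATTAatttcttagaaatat
MED30: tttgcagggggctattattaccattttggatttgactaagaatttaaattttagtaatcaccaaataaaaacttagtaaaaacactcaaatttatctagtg
MED17: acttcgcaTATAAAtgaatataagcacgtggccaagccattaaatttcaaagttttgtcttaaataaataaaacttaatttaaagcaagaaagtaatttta
Taf4: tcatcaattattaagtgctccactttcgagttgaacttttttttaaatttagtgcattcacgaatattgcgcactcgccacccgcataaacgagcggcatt
MED7: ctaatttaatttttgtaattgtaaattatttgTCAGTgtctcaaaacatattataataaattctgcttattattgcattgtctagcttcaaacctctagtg
The only capitals are the homeodomain letters at MED27, the TATA box letters at MED17 and the initiator letters at MED7. No window shown holds the forkhead letters TAAACA, which are described below for other member summits. These are matches of letters only, not shown to be working elements.

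Of the 40 genes, 14 (35.0%) carried an IDR summit no more than 1000 bp from a TSS, where 21.9% of all protein-coding genes had one. The share among the other genes was 21.8%. MED genes made up 11 of the 14, which is 44.0% of the 25 MED genes. The remaining 3 were Taf genes, 20.0% of the 15. Another 17 members (42.5%) had a summit in the pooled list only, against 34.0% of other genes, and 9 had none. In all, 31 members (77.5%) had a pooled summit, where 55.9% of all protein-coding genes had one. No test was made of these differences.

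Most member promoters faced a second gene. A divergent neighbour, meaning another protein-coding gene on the opposite strand whose TSS lies within 1000 bp upstream, was present for 31 of the 40 members (77.5%) and for 36.1% of other genes, with 36.2% over all genes. Among genes with such a neighbour, 13 of 31 members (41.9%) and 36.2% of 5021 others had an IDR summit. Among genes without, it was 1 of 9 members (11.1%) and 13.7% of 8884 others. The members' overall 35.0% stood beside 31.1% for the others weighted to the members' mix of both arrangements. For pooled summits, the members' 77.5% stood beside 67.7% for the others weighted in the same way.

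**Figure D1:**
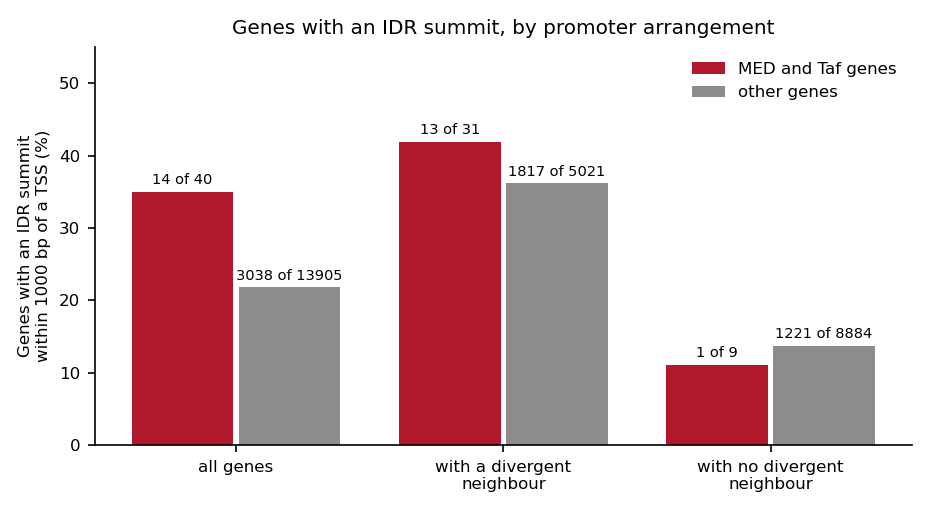
Percent of genes with an IDR summit within 1000 bp of a TSS, for MED and Taf genes (red) and other protein-coding genes (grey), over all genes and by whether a divergent neighbour lies within 1000 bp upstream. Numbers above the bars are gene counts, and the members stand at 41.9% beside 36.2% with a divergent neighbour and at 11.1% beside 13.7% without.

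Head subunits touch the polymerase directly, and 3 of the 7 head genes had an IDR summit. MED17, which links the head to the rest of the complex, had its peak on 3R from 18188743 to 18189110, with the summit at -179 bp, a signal of 565.1 and pooled rank 874. It ranked 467 in replicate 2 and 1425 in replicate 3. The summit lay between MED17 and the divergent gene CG12321, at nearly the same distance from both. MED8 was the weakest of the 14, with a peak on 2R from 20326895 to 20327284, an offset of -284 bp, signal 151.0 and pooled rank 4853. Its ranks of 4503 and 5116 in replicates 2 and 3 were close to the end of the IDR set. MED20 had its summit at 991 bp downstream, in an untranslated exon of MED20 itself, on 2L from 8071749 to 8071899 (signal 277.1, pooled rank 2475), and ranked 3373 in replicate 2 and 2283 in replicate 3. That summit lay at -233 bp from poe, which encodes a large calmodulin-binding protein. MED20 shares a divergent promoter with Trf, a relative of the TATA-binding protein, their TSSs being 47 bp apart, and the downstream summit was the single pooled summit within 1000 bp of MED20. The other head genes, MED6, MED11, MED18 and MED22, had none in the IDR set.

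Middle subunits gave 3 of 9 (Wilson interval 12.1 to 64.6%), where 21.9% of all protein-coding genes had an IDR summit. MED31, among the most conserved Mediator proteins, had a summit at -205 bp on 3R (4641613 to 4641892, signal 424.4, pooled rank 1362). Its ranks were 1193 and 1564 in replicates 2 and 3. This summit lay in an intron of CG9775, 80 bp inside that gene, and was equally far from slx1, which encodes a subunit of a structure-specific nuclease. MED4, which had no other gene within the window of its summit, was bound at -169 bp on 3L (7250612 to 7250771, signal 299.7, pooled rank 2212), with ranks 1756 in replicate 2 and 2423 in replicate 3. MED4 was the single member with an IDR summit and no divergent neighbour. MED7 had its summit at -87 bp on 3R (10761005 to 10761211, signal 334.8, pooled rank 1898). The replicates disagreed there. Replicate 3 ranked the peak 2377, while the nearest summit of replicate 2 was 5739 bp away. Such an absence from the full list of replicate 2 held for 1 of the 14 member peaks (7.14%) and for 5.89% of 2497 IDR promoter peaks at other genes. MED1, MED9, MED10, MED19, MED21 and MED26 had no IDR summit.

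Tail subunits, which are contacted by many activators, gave 3 of 5 (Wilson interval 23.1 to 88.2%), beside 21.9% of all protein-coding genes. MED15 carried the strongest peak of any MED gene, on 2L from 472326 to 472640 with signal 766.0 and pooled rank 513. Its summit was at the same base in both replicates, which ranked it 549 and 512. It lay -532 bp from MED15 and -281 bp from CG4297, between both genes. MED25 had its summit at -92 bp on 3R (20008759 to 20008927, signal 258.3, pooled rank 2691), beside the heparan sulfate sulfotransferase gene Hs6st. It ranked 1592 in replicate 2 and 4327 in replicate 3. MED16 had its summit at -72 bp on 2R (22182871 to 22183260, signal 186.2, pooled rank 3905), the closest to a TSS of the 14. It ranked 4826 in replicate 2 and 3766 in replicate 3. The tail genes MED23 and MED24 had no summit even in the pooled list.

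MED27, MED28 and MED30 join the head and the tail, and 2 of these 3 genes had an IDR summit (Wilson interval 20.8 to 93.9%). Over all protein-coding genes it was 21.9%. The MED27 summit lay at -116 bp on 3R (5654848 to 5655175, signal 638.7, pooled rank 711), at -162 bp from elm, and ranked 413 in replicate 2 and 1088 in replicate 3. MED30 was bound at -171 bp on 3L (654098 to 654406, signal 577.3, pooled rank 844), at -103 bp from Rev1, which encodes a DNA polymerase of translesion synthesis. Its ranks of 924 and 816 in replicates 2 and 3 were close. MED28 and the scaffold gene MED14 had no IDR summit.

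Among the Taf genes, those of the histone-fold TAFs gave 1 of 11 and the others 2 of 4. The Wilson intervals were 1.62 to 37.7% and 15.0 to 85.0%, and the share over all protein-coding genes was 21.9%. Taf5, a WD-repeat scaffold protein of TFIID, carried the strongest peak of all 40 genes, on 2R from 10879676 to 10880022 with signal 851.9 and pooled rank 407. It lay at -161 bp, midway to the peroxisome biogenesis gene Pex6, and ranked 379 and 469 in replicates 2 and 3. Taf2, which contacts the initiator, followed with a peak on 3L from 9888686 to 9889137, signal 835.5 and pooled rank 427. Its summit at -260 bp lay in an untranslated exon of CalpB, a calpain protease gene, and ranked 394 and 461. Taf4, a histone-fold subunit that pairs with Taf12, had its summit on 3L (16113557 to 16113780, signal 354.5, pooled rank 1750) at -104 bp from an internal TSS, in an intron of Taf4. It ranked 1870 in replicate 2 and 1733 in replicate 3. The Taf1 gene, which encodes the largest TFIID subunit, and Taf6, Taf7, Taf10 and Taf10b had no summit in the pooled list. Taf10 and Taf10b are each other's divergent neighbours, with TSSs 45 bp apart.

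**Figure D2:**
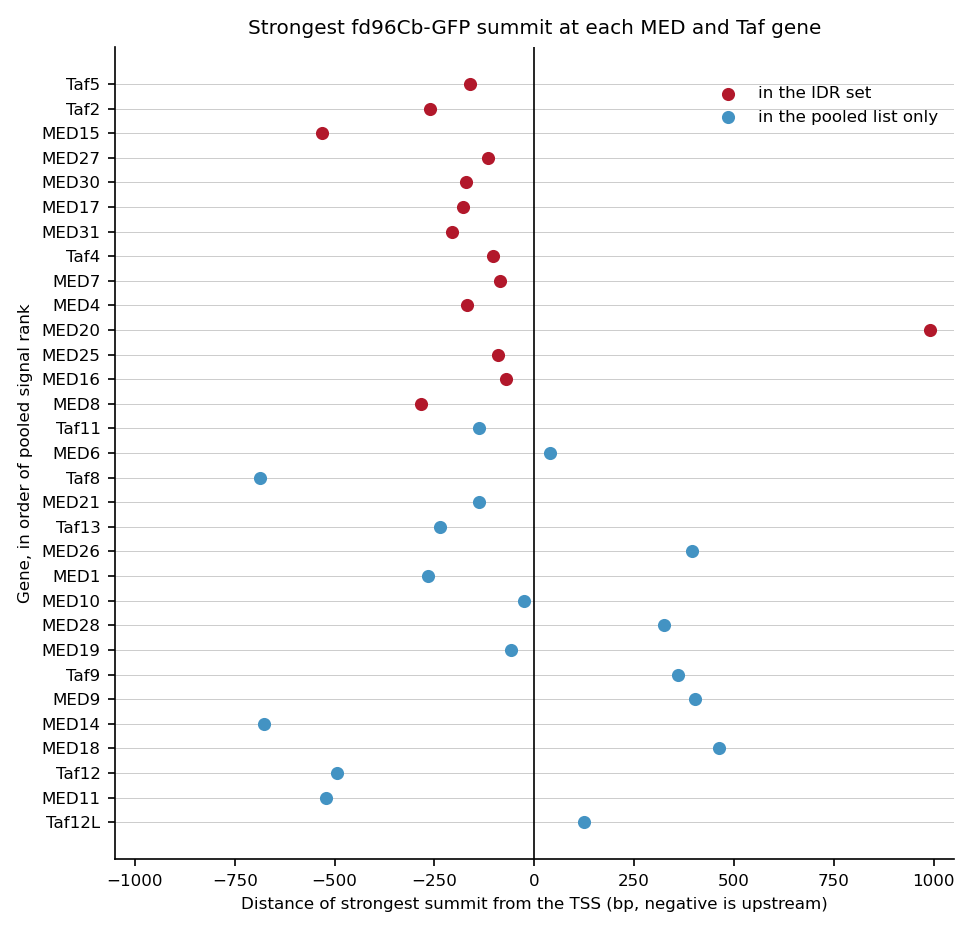
Distance in bp of the strongest pooled summit from the TSS (x axis, negative is upstream) for the 31 MED and Taf genes with such a summit within 1000 bp, ordered from the strongest peak at the top. The 14 in the IDR set (red) lie at -72 to -284 bp except for MED15 at -532 bp and MED20 at 991 bp, while the 17 in the pooled list only (blue) lie from -686 to 462 bp.

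Summits of the 14 genes lay mostly upstream, with a median offset of -165 bp. The median over 3038 other genes was -166.5 bp. Of the members, 13 of 14 (92.9%) had the strongest summit upstream, and 12 of 14 (85.7%) within 300 bp upstream. The corresponding shares among other genes were 85.0% and 60.7%. The summit was shared, in that it also lay within 1000 bp of another gene's TSS, for 12 of 14 members (85.7%) and for 59.2% of other genes. At 7 of the 14, no other gene had a nearer TSS: MED27, MED17, Taf4, MED7, MED4, MED25 and MED16. Counting each summit for the nearest gene alone, 17.5% of members and 15.9% of other genes had an IDR summit.

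The distance to the divergent neighbour was compared between members with and without an IDR summit. Its median was 278 bp (47 to 813 bp) for the 13 members with an IDR summit, against 111 bp (19 to 859 bp) for the 18 without, in which Taf10 and Taf10b count each other. The range with an IDR summit lies within the range without. Among other genes the medians were 304 bp for 1817 with an IDR summit and 290 bp for 3204 without. At 47 bp, the member with an IDR summit closest to its neighbour was MED20, whose summit lay outside the shared promoter. The summits of Taf2, MED31 and Taf4 also did not lie between the TSS of the member and the nearest divergent TSS.

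Member peaks had a better median rank than other promoter peaks. The median rank of the 14 was 1556 (407 to 4853), against 2563 (1 to 5743) for the 2497 IDR promoter peaks at other genes. Taken as the strongest summit of each gene, the median over 3038 other genes was 2306.5. Median signals of the peaks were 389.4 at members and 268.0 at others. Of the 14, 6 (42.9%) were among the strongest 1000 pooled peaks, as were 22.3% of the 2497 other promoter peaks. These were Taf5, Taf2, MED15, MED27, MED30 and MED17. The range of member ranks lies within that of the others, so the groups overlap. Ranked by interval width in place of signal, from the widest, the order of the medians turned round, with 3273.5 for members and 2811 for the others.

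Both replicates listed most of these peaks. Within 100 bp of the pooled summit, 13 of 14 member peaks (92.9%) had a summit among the strongest 5743 of both replicates, against 77.5% of the other promoter peaks. Over the full replicate lists there was no such gap, with 92.9% of member peaks and 92.2% of the others matched in both. The exception was MED7 in either count. In replicate 2 alone, 13 members (32.5%) had a summit of its strongest 5743 within 1000 bp, where 21.8% of all protein-coding genes had one. Replicate 3 alone gave 15 members (37.5%), where 21.6% of all genes had one. Ranks differed by less than 1.5 times at 10 of the 13 peaks found in both. The exceptions were MED17, MED25 and MED27, which stood 3.05, 2.72 and 2.63 times lower in the ranking of replicate 3 than in that of replicate 2. Replicate 2 gave the better rank at 8 of 13 peaks, so neither replicate was ahead throughout. These comparisons of ranks were not made for the promoter peaks at other genes. Over the full lists, 28 members had a summit of replicate 2, where 51% of all genes had one, and 35 had a summit of replicate 3, where 57.4% of all genes had one.

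**Figure D3:**
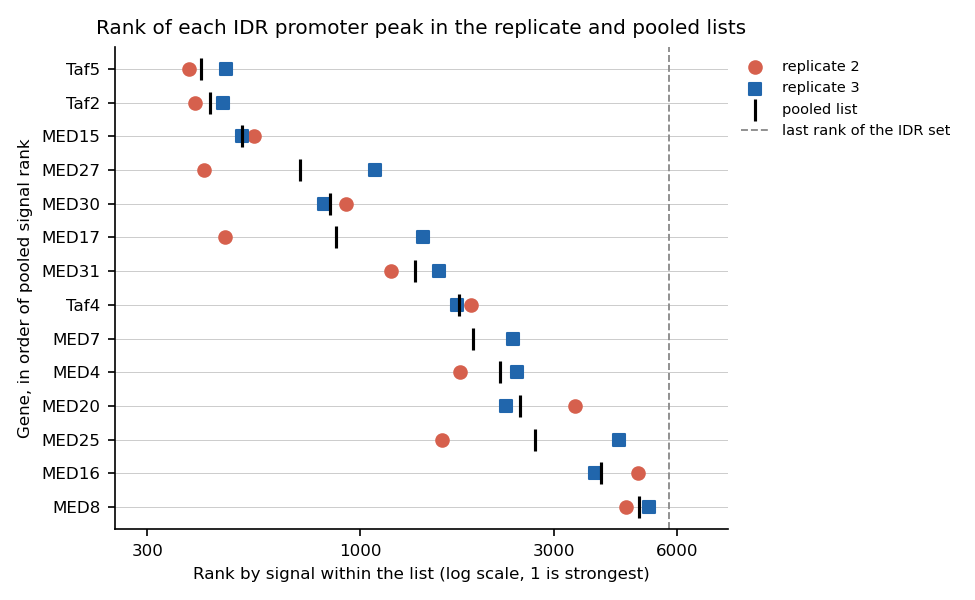
Rank by signal within each list (log scale, 1 is the strongest) of the 14 IDR promoter peaks of MED and Taf genes, with circles for replicate 2, squares for replicate 3 and bars for the pooled list. The dashed line marks rank 5743, MED7 has no circle, and MED17, MED25 and MED27 show the widest gaps between circle and square.

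The 17 genes with a summit in the pooled list only had their strongest at ranks 6407 to 28733. For 10 of them, from MED10 down to Taf12L, the authors' q-value was above 0.05, so an entry in the list is not shown to be binding. The −log10 q of the 17 had a median of 0.690 and ran down to 0.0576 at Taf12L, while Taf11 and MED6 had 4.13, the highest value of the list. Just outside the IDR set stood Taf11, a histone-fold partner of Taf13, with a summit at -139 bp, signal 115.5 and rank 6407. MED6, a head subunit, followed at 39 bp downstream, signal 112.0 and rank 6631, and Taf8, the partner of Taf10 in TFIID, at -686 bp, signal 97.28 and rank 7593. Taf11 and Taf8 were within the strongest 5743 of a single replicate. Taf11 ranked 4685 in replicate 2 and 6858 in replicate 3, and Taf8 19263 and 4375, although at different summits. MED6 ranked 10925 and 5943, so it was outside in both.

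The remaining pooled ranks were 8050 for MED21, 9346 for Taf13, 9518 for MED26, 9917 for MED1, 10153 for MED10, 12791 for MED28 and 12800 for MED19. Lower still were Taf9 at 15608, MED9 at 17445, MED14 at 18910, MED18 at 20959, Taf12 at 21634, MED11 at 25179 and Taf12L at 28733. All 17 had an interval of 390 bp, while the IDR peaks of members had a median width of 312 bp (151 to 452 bp). MED22, MED23, MED24, Taf1, Taf3, Taf6, Taf7, Taf10 and Taf10b had no pooled summit. Of these, MED22 and Taf6 had none in either replicate. The distance of genes without an IDR summit from the nearest such summit had a median of 5790 bp. It was 1415 bp for Taf12, 1720 bp for MED14, 1803 bp for Taf10b and 1848 bp for Taf10, the 4 genes just outside the window, and 896578 bp for MED21.

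Base composition dipped at the summits of the members. In the 101 bases around them, mean GC was 26.5% ± 7.22 (SD over 14 peaks), against 30.8% ± 8.46 (SD over 2497 peaks) at other promoter summits. At flanks 500 bp to either side it was 48.5% ± 7.0 for members and 45.0% ± 7.74 for others. The summit was the lower in GC at 14 of 14 member peaks and at 88.0% of the others. The lowest values were 14.9% each at Taf5 and Taf2, and the highest were 39.6% at Taf4 and 36.6% at MED15. Taken over the promoter from 250 bases before to 50 after the TSS, median GC was 34% for the 14 genes with an IDR summit and 37.7% for the 26 without. Other genes had 37.3% with and 38.3% without.

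**Figure D4:**
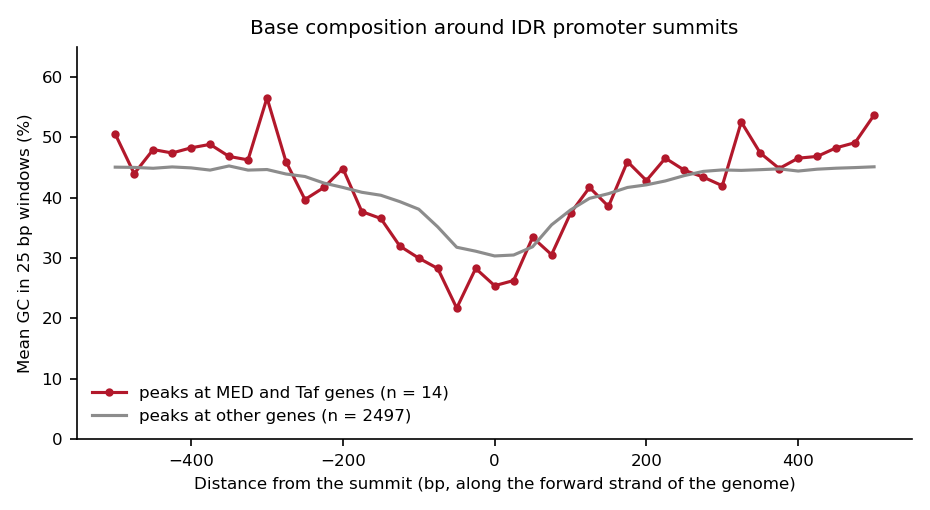
Mean GC in percent in windows of 25 bp, by distance in bp from the summit along the forward genome strand, for the 14 IDR peaks at MED and Taf genes (red, with points) and the 2497 at other genes (grey). Both lines dip at the summit, and within 50 bp of it the means are 26.5% for members and 30.8% for others.

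Forkhead letters were present at some member summits. In total 9 motifs were searched, each on both strands. The longer forkhead motif was GTAAACA. Its shorter core, contained in every longer match, was TAAACA. For the housekeeping promoter factor DREF the letters were TATCGATA. For motif 1, which is bound by the zinc-finger protein M1BP, they were GGTCACACT. Core promoter elements were represented by TATAAA for the TATA box and by TCAGT for the initiator. The remaining searches were CAGCTG for an E-box, GAGAG for the GAGA factor and TAATTA for homeodomain proteins. The longer forkhead motif was within 50 bp of 0 of 14 member summits and 3.16% of the 2497 others. TAAACA was at 5 of 14 (35.7%), those of Taf2, MED31, MED4, MED20 and MED16, and at 16.8% of the others. In flanks 500 bp away it was in 7.14% of member windows and 9.53% of other windows. Member summits also had the lower GC given above, and the part of base composition in this difference was not tested. TATAAA was at 28.6% of member summits and 27.2% of others, and TAATTA at 21.4% and 12.3%.

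Motif 1 and DREF letters stood at higher shares in the promoters of the 40 genes than in others, and initiator and GAGA letters at lower shares. In the 300 bases from 250 before to 50 after the canonical TSS, GGTCACACT was present for 12 of 40 members (30.0%) and 5.80% of 13904 others. TATCGATA was present for 9 members (22.5%) and 8.90% of others. At least 1 of these was found in 20 members (50%) and 14.0% of others. Conversely, TCAGT was in 30.0% of member promoters and 51.9% of others, and GAGAG in 15.0% and 30.2%. Forkhead core letters were in 45.0% of member promoters and 32.5% of others, and the longer forkhead motif in 12.5% and 9.31%. Motif 1 was in 29.0% of the members with a divergent neighbour and 9.86% of such others. Without such a neighbour it was in 33.3% of members and 3.5% of others. For DREF letters the gap was smaller among genes with a divergent neighbour, at 25.8% of members and 15.2% of others. Without one, they were in 1 of 9 members (11.1%) and 5.36% of others.

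**Figure D5:**
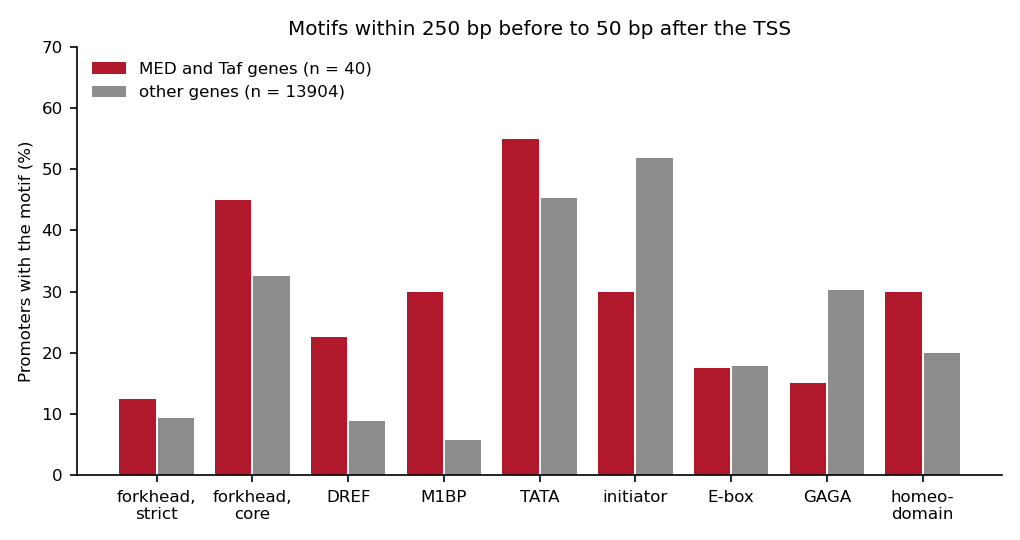
Percent of promoters, from 250 bp before to 50 bp after the canonical TSS, that hold each motif on either strand, for the 40 MED and Taf genes (red) and 13904 other genes (grey). M1BP stands at 30.0% beside 5.80% and DREF at 22.5% beside 8.90%, while the initiator core and GAGA are lower in the members.

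Motif 1 lay close to the start of transcription and, at the 5 members with both, 168 bp or more from the fd96Cb summit. Its centre was between -5 and 22 bp of the TSS in each of the 12 promoters except that of MED10, where it lay at -64 bp. Of these sites, 8 are printed with 10 bases on each side, 5′ to 3′ on the strand that reads GGTCACACT, because they show the motif with its surroundings at the TSS. The other 28 members lack these letters in this window, and the sites at MED10, MED8, MED23 and Taf5 are not printed. The motif is in capitals.
MED11: ctcgtgttctGGTCACACTgttatctggt
MED15: tgcctgaaacGGTCACACTgtgctcagag
MED19: gtcgcaatgcGGTCACACTggttcgcgga
MED20: agtcagcactGGTCACACTggacgctttt
MED22: gaaaatacgtGGTCACACTgtacatataa
MED24: aagatacctcGGTCACACTgagcgctgct
Taf1: gtccatcgacGGTCACACTtacgcgtgtg
Taf4: tgtcgccaacGGTCACACTgcacaactcg
The windows are chr3L:18745837-18745865 for MED11, chr2L:473009-473037 for MED15, chr3L:17846475-17846503 for MED19, chr2L:8072823-8072851 for MED20, chrX:928122-928150 for MED22, chr3L:8191277-8191305 for MED24, chr3R:6646894-6646922 for Taf1, chr3L:16113213-16113241 for Taf4. At the 5 members with both motif 1 and an IDR summit, the motif was 168 to 980 bp from the summit. Among them, MED20 (980 bp) has its summit downstream near poe, and Taf4 (459 bp) has its summit at an internal TSS. MED15 (542 bp) has its summit nearer to CG4297. DREF sites at members with an IDR summit were 84 to 236 bp from it. No member summit had GGTCACACT or TATCGATA within 50 bp, against 0.400% and 1.28% of other promoter summits. An IDR summit was present for 5 of 12 members with motif 1 (41.7%) and 9 of 28 without (32.1%), and for 29.7% and 21.4% of other genes.

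Other genes of the transcription machinery had IDR summits at shares like those of the members. Across 5 lists with 57 matched genes, 23 had one (40.4%), where 21.9% of all protein-coding genes did. Unlike for the members, these shares were not weighted by divergent neighbours or counted by nearest TSS. How far promoter arrangement enters them was not tested. Of the 6 Mediator and TFIID genes with other symbols, 3 had one: the kinase module genes skd (-370 bp, signal 261.4) and Cdk8 (-79 bp, signal 149.1), and ix (849 bp, signal 140.6). kto, CycC and Tbp had none. General transcription factors gave 8 of 20, led by Ssl1 of TFIIH (3L, 22878693 to 22879130, -208 bp), whose signal of 3512 is the 9th strongest of the pooled list. The others were TfIIA-L, Xpd, TfIIB, TfIIEbeta, TfIIA-S, Tfb5 and TfIIS (-747 bp), an elongation factor that the list also holds. RNA polymerase II gave 5 of 12 subunit genes, Polr2B (signal 697.7), Polr2H, Polr2J, Polr2F and Polr2I. SAGA, a coactivator that shares TAFs with TFIID, gave 7 of 15: Gcn5 (signal 770.5), which encodes its histone acetyltransferase, Ada2b, wda, Ada3, e(y)2, Sgf11 and Spt3. The testis TAF relatives can, sa, mia and nht gave 0 of 4, and Taf12L likewise had no IDR summit. All 4 had a pooled summit.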

How the data were processed

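Peak lists came from 2 biological replicates of ChIP-seq on embryos, sonicated to 200 to 800 bp per the labels. The labels describe it as against GFP, but their antibody field names fd96Cb, so the antibody is not settled. The authors deposited narrowPeak lists in dm6 whose signal values (column 7) and −log10 q-values (column 9) are as deposited. Per the deposited README, lists were derived from the alignments and a control file. The sources used here name no aligner, no peak caller and no cutoff for IDR. Read totals were not used here, so depth and its precision are unknown.

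Genes and 19607 TSSs came from Ensembl release 115, and sequence from the RefSeq Release 6 genome, whose arms hold every peak. No promoter table was used; promoters were cut from that genome at the canonical TSS. Up to 4 summits per list fell past the end of their peak and were set to its last base. A summit counted for every gene with a TSS within 1000 bp. A replicate peak matched within 100 bp. The strongest summit per gene was used.

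All 40 members are accounted for. Those with an IDR summit were named with position, signal and ranks, those with a pooled summit only by rank, and the remaining 9 by name. The members, gene lists, motifs and tests were chosen with earlier results of these data known, and the role list gained Taf3 and Taf9 after their current symbols were seen. In the related lists, entries without a match among current symbols were left out, and e(y)1, bip2 and rye are the members Taf9, Taf3 and Taf12L. No statistical test was made: all values are descriptions over genes or peaks of 2 libraries. The pairing of summits with TSSs and the matching of summits between lists were tested on simulated data, and the other steps were not. Work was done in Python 3.11.15 (matplotlib 3.10.9, pandas 2.3.3, numpy 2.4.6, scipy 1.17.1).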

Additional observations from a re-analysis of the deposited data

How the results depend on the processing

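Of 13 alternatives for the share of members with an IDR summit (35.0%, Wilson 95% interval 22.1 to 50.5, counting only), 11 stayed within that interval. The share was 17.5% with each summit counted for its nearest TSS (15.9% of other genes), and 11.1% among genes with no divergent neighbour (13.7% of others). Windows of 500 and 2000 bp gave 30.0% and 45.0% beside 18.5% and 27.7% of others, and with a replicate left out it was 32.5% to 37.5%. The pooled share was 90.0% at 2000 bp (67.6% of others). Without a replicate, the median offset was -171 to -170 bp and the median rank 1193 to 1733. By interval width, the median rank of the 14 was 3273.5 (2811 for other promoter peaks). Matching in both full replicate lists was 92.9% for members and 92.2% for others. Alternatives for replicate matching, TAAACA, GC, motif 1, DREF and the related lists stayed within the interval or SD of their value. Alternatives by TSS number and divergent neighbour, those for motif 1, DREF and the related lists, and the match to full replicate lists were chosen after the data were seen. No paired analysis was possible because there is a single group. Depth is unknown, so the absence of a summit is not shown to be absence of binding.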

Other observations

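At Taf7, which encodes a subunit that binds Taf1, both replicates listed a summit that the pooled list lacks. Replicate 2 ranked it 7271 (3R, 7907562, -76 bp from a TSS) and replicate 3 ranked it 7516 (7907588, -50 bp), so the summits lie close together. The nearest pooled summit was 5858 bp away and ranked 15947. A summit within 100 bp in both full replicate lists and within 1000 bp of a TSS was found for 17 members, of which Taf7 alone (5.88%) had no pooled summit. Among other genes it was 14 of 4083 (0.343%). The gene was singled out after its values were seen.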
